A study of Mus musculus with 20 samples.

Results

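Collagens and laminins are the main structural proteins of the extracellular matrix, and their genes were described here in mouse hypothalamus with and without Ndn and Magel2. Members were protein-coding genes with a symbol of the form Col, a number, a and a number, or Lama, Lamb or Lamc and a number, whose mean level over the 20 libraries was at least 0.5 CPM (counts scaled to a common library total). All 55 of the 55 genes with such a symbol met the level, out of 53801 gene identifiers in the count tables. They comprised 44 collagen and 11 laminin genes. They were placed in 3 classes: 11 fibrillar collagen genes, 19 basement membrane genes (collagen IV, XV and XVIII and every laminin chain) and 25 other collagen genes. The lowest members were Col17a1 at 0.722, Col28a1 at 0.895 and Col6a6 at 1.13 mean CPM, and no gene with such a symbol lay below the level.

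The study sequenced total RNA from hypothalamus after removal of ribosomal RNA, as paired-end strand-specific libraries. KO_night libraries came from mice with both Necdin (Ndn) and Magel2 deleted (the MADIN line), killed 18 h after light on, and WT_night libraries from C57BL/6J mice at the same hour. KO_day and WT_day libraries came from mice of the same genotypes, killed 6 h after light on. Each of the 4 groups had 5 libraries, all mice had free food and water and a standard light and dark cycle, and age and sex are not given in the sources used here.

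Fibrillar collagens form the tension-bearing fibers of connective tissue; in brain they lie mainly in the meninges and around larger vessels. Collagen IV chains assemble into networks, and laminins into heterotrimers of an alpha, a beta and a gamma chain. Together these form the basement membranes beneath the endothelium, around pericytes and at the glial border of the brain. The remaining collagens include beaded filament formers, fibril-associated chains and membrane-spanning chains, some of which neurons make.

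Library totals lay between 32066289 and 48697647 counts. Ndn stood at 0.248 to 1.01 scaled CPM in the 10 KO libraries, against 239 to 346 in 9 of the 10 WT libraries. The library labelled WT_day 3 had 30.9, which is 11.3% of the mean of those 9. Its Magel2 was likewise 12.4% of theirs, so the library goes against its label. It was kept, and the number of members called at night is also given without it. Groups follow the first letter of each title, except KO_day 5, whose title has no such letter and whose group is from the time field. In 6 libraries (KO_night 1, 2 and 3, WT_night 1, KO_day 1 and 2) the time field names the other time. WT_day 4 and WT_day 5 carry the same number in their titles, and the replicate number of WT_day 5 was assigned here. Hypothalamic markers such as Oxt (154 to 334 scaled CPM) and Avp (150 to 305) were counted in every library. The pituitary hormone gene Gh ranged from 2.12 to 655. The labels do not say that libraries of a group are separate animals, so each p below measures only the spread between these libraries.

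Levels of the members were compared as CPM scaled by trimmed mean of M values (TMM) and divided by the kb of merged exons of each gene. By this measure the basement membrane class was led by Col4a2 at 6.67, Lamc1 at 4.88, Lamb2 at 4.69, Col4a1 at 4.49 and Lama2 at 2.96 scaled CPM per kb over the 20 libraries. Col4a1 and Col4a2 encode the chains of the collagen IV network found in nearly all basement membranes, Lamc1 the gamma chain that most laminins share, and Lamb2 and Lama2 chains of vascular and glial laminins. The kidney-type collagen IV chains Col4a3 and Col4a4 lay at 0.184 and 0.163 scaled CPM per kb. Among the alpha chains of laminin the order per kb was Lama2, Lama1 (1.41), Lama3 (0.835), Lama5 (0.826) and Lama4 (0.76), the last 3 being close together.

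**Figure D1:**
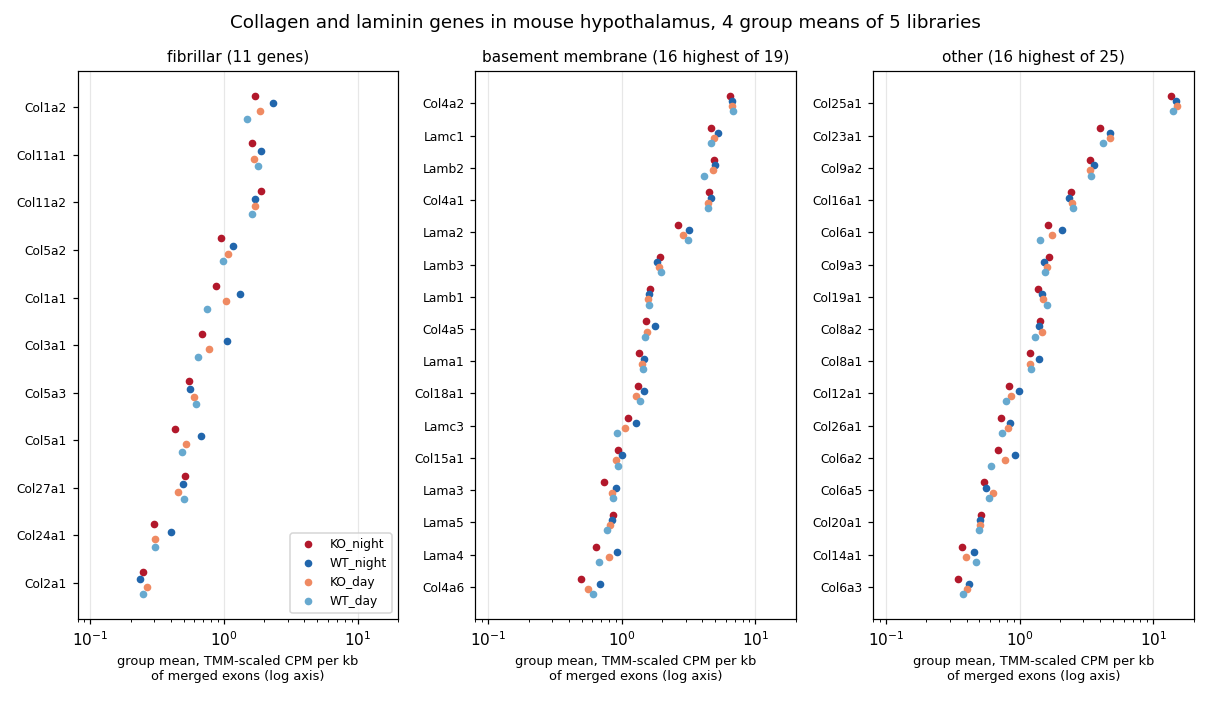
Mean level in the 4 groups (points, 5 libraries each) of the 11 fibrillar genes and of the 16 highest genes of each other class, in scaled CPM per kb of merged exons on a log axis, by class. Col25a1 is highest at 14.4 over all libraries, and most genes shown have their 4 group means close together.

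Col4a1 and Col4a2 lie head to head on chromosome 8, Col4a1 on the minus strand (chr8:11198423-11312826) and Col4a2 on the plus strand (chr8:11312805-11449287, GENCODE M21 on GRCm38), so that their first 22 bases overlap. The 250 bases before each gene's start therefore lie inside the span of the other gene. They are shown with those of Col1a2, whose level followed that of its chain partner most closely among the fibrillar pairs examined below. The sequences are from RefSeq (GRCm38.p6), 5′ to 3′ on the gene's own strand, with the letters CCAAT or its reverse complement ATTGG in capitals.
Col4a1, chr8:11312827-11313076, minus strand: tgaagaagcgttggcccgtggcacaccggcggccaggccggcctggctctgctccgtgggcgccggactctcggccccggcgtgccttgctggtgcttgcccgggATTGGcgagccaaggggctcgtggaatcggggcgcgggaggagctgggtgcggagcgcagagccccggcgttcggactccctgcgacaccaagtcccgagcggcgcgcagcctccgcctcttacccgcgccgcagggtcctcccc
Col4a2, chr8:11312555-11312804, plus strand: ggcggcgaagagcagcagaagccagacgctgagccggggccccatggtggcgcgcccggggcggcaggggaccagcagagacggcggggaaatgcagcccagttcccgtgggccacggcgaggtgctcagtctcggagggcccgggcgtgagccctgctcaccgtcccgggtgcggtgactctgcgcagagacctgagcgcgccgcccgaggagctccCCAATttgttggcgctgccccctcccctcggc
Col1a2, chr6:4505368-4505617, plus strand: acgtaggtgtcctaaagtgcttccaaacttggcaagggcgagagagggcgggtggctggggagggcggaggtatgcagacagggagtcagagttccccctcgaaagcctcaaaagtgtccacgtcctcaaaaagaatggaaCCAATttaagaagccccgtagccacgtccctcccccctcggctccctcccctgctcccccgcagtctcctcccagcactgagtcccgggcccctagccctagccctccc
Counting back from the RefSeq start, the capitals begin at -145 in Col4a1, at -32 in Col4a2 and at -109 in Col1a2. The Col1a2 window lies inside the GENCODE span of the gene (chr6:4504814-4541544), which begins further upstream. Of the 55 genes, 40 had a promoter in the table. CCAAT on either strand was present in 13 of the 40 windows (32.5%), against 34.5% of 27025 promoters of the same length. GGGCGG (reverse complement CCGCCC) was present in 23 (57.5%), against 32.9% of all promoters, and TATAAA (reverse complement TTTATA) in 5 (12.5%), against 13% of all promoters. Occurrences of different motifs may share letters, and a match describes the letters only.

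The fibrillar class was led by Col1a2 at 1.85, Col11a1 at 1.74, Col11a2 at 1.73, Col5a2 at 1.05 and Col1a1 at 0.996 scaled CPM per kb. Col1a1 and Col1a2 make type I collagen, the most abundant fibril, Col5a2 a chain of the type V collagen that limits fibril diameter, and Col11a1 and Col11a2 the cartilage counterpart of type V. Col2a1, the cartilage fibril gene, was lowest in the class at 0.249 scaled CPM per kb.

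Among the other collagens Col25a1, which encodes a membrane-spanning collagen of neurons, stood at 14.4 scaled CPM per kb. It was followed by Col23a1, a second membrane-spanning chain, at 4.41, by Col9a2, a fibril-associated chain, at 3.43, and by Col16a1 at 2.43 scaled CPM per kb. With the whole gene span as the length in place of exons, 17 of the 55 genes shifted by 10 or more places in the order, and 6 genes were in the top 10 by both lengths.

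Some members share their position with another transcribed gene, and whether reads were counted by strand is not given in the sources used here. Lamb3 encloses Hsd11b1 and G0s2, whose summed level was 65.6% to 93.4% of that of Lamb3 across libraries, and Col18a1 overlaps Slc19a1, at 125% to 186% of its level. Col20a1 overlaps BX649560.1, at 66.5% to 135% of its level. The antisense genes Gm15418 and Gm15419 stood at 19.9% to 27.4% of Col4a1 and 18.5% to 21.9% of Col4a2. Col4a3 overlaps the antisense gene C430014B12Rik (13 to 20.5 scaled CPM), and Col10a1 lies within Nt5dc1 (286 to 373 scaled CPM) on the other strand. Values of these 7 genes are uncertain to that extent.

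Genes whose products assemble together were compared across the 20 libraries in 6 chain pairs, and 2 further pairs set a collagen gene beside a cell type marker. Permutation p-values (two-sided, 100000 resamples) were adjusted over the 8 pairs by Benjamini and Hochberg. Col6a1 and Col6a2, chains of the beaded filament collagen VI, gave Pearson r = 0.895 (p = 1e-05, the smallest these permutations can give, adjusted 4e-05) and Spearman rho = 0.886 (p = 1e-05, adjusted 4e-05). Without the 2 libraries farthest from the median r was 0.870, and on deviations from group means it was 0.858.
Col1a1 and Col1a2 gave r = 0.835 (p = 1e-05, adjusted 4e-05) and rho = 0.848 (p = 1e-05, adjusted 4e-05), 0.830 without 2 libraries and 0.751 within groups. For Col1a1 and Col3a1, the type III fibril chain, r was 0.766 (p = 3e-05, adjusted 8e-05) and rho 0.645 (p = 0.00258, adjusted 0.00688), with r at 0.763 without 2 libraries and 0.683 within groups (adjusted p = 0.0622).

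Col4a1 and Col4a2 were less tightly related than the type I and type VI pairs in size of r: r was 0.572 (p = 0.00868, adjusted 0.0173) and rho 0.370 (p = 0.108, adjusted 0.144). Without KO_night 4 and KO_day 3, the libraries farthest from the median of Col4a1, r was 0.458 and did not pass (adjusted p = 0.0768), and within groups it was 0.613 (adjusted p = 0.0622). Col5a1 and Col5a2 gave r = 0.453 (p = 0.0446, adjusted 0.0595) and rho = 0.510 (p = 0.0234, adjusted 0.0469), with r at 0.663 without KO_night 2 and KO_day 3 (adjusted p = 0.00528) and 0.208 within groups. Lamb1 and Lamc1, the beta and gamma chains common to many laminins, gave r = -0.35 (p = 0.129, adjusted 0.147) and rho = -0.25 (p = 0.280, adjusted 0.319). For Col1a1 and Dcn, the fibroblast proteoglycan decorin, r was 0.556 (p = 0.0108, adjusted 0.0173) and rho 0.489 (p = 0.0299, adjusted 0.0478), but r within groups was 0.478 (adjusted p = 0.214). For Col4a1 and Flt1, an endothelial receptor, r was 0.122 (p = 0.609) and rho 0.119 (p = 0.618).

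At night the deletion went with lower levels of 7 of the 55 genes and with higher levels of none. Those that fell were the laminin chains Lama4, Lama2, Lamc1 and Lama3, the collagen IV chains Col4a6 and Col4a3, and the fibrillar chain Col5a1, by 1.13-fold to 1.55-fold. This is 12.7% of the members at an adjusted p under 0.05 (edgeR quasi-likelihood, Benjamini-Hochberg over 22181 genes). Of all genes tested 11.9% passed in either direction, 6.77% lower and 5.18% higher. The share among the members is near that of all genes in either direction and above the share called lower. Members are long genes, and shares by gene span are given below. By class, 6 of 19 basement membrane genes, 1 of 11 fibrillar genes and 0 of 25 other collagens fell. Of the 55 genes, 43 had a lower mean log2 level in KO_night, with a median log2 change of -0.19, against 0.01 over all genes tested.

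Lama4 encodes an alpha chain of vascular laminin, made mainly by endothelium. Its level was 8.71, 7.18, 7.06, 7.70 and 8.21 scaled CPM in KO_night, against 10.6, 11.4, 10.2, 12.6 and 10.9 in WT_night. Every KO_night library lay below every WT_night library. The share of all genes whose groups do not overlap was not counted, here or for the genes below. The group means were 7.77 ± 0.696 and 11.1 ± 0.929 scaled CPM (SD, n = 5 each), a log2 change of -0.52 ± 0.10 (SE, edgeR adjusted p = 0.0109).

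Lama2 encodes the alpha chain of the laminin also called merosin, made in brain by pericytes, astrocytes and fibroblasts. It had 43.3, 40.2, 42.1, 43.5 and 46.4 scaled CPM in KO_night, against 56.1, 52.2, 54.3, 48.6 and 48.7 in WT_night, again without overlap. Its log2 change was -0.27 ± 0.052 (edgeR adjusted p = 0.00964), the lowest p among the members. Lama2 also has the longest span of all members, at 640 kb.

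Lamc1 had 36.9, 34.9, 37.6, 44.5 and 39.1 scaled CPM in KO_night, against 42.8, 43.1, 47.3, 42.5 and 42.2 in WT_night. All KO_night libraries but replicate 4 lay below the WT_night range. The log2 change was -0.18 ± 0.051 (edgeR adjusted p = 0.0319), the smallest of the 7. Lama3, an alpha chain known from epithelial laminin, had 8.58, 7.07, 7.84, 8.91 and 7.39 scaled CPM in KO_night, against 9.31, 10.4, 11.7, 8.27 and 8.74 in WT_night. Its groups overlapped, KO_night 1 and KO_night 4 lying within the WT_night range, and the log2 change was -0.28 ± 0.093 (edgeR adjusted p = 0.0475).

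Of the 6 collagen IV genes, Col4a6 and Col4a3 fell. Col4a6, which partners Col4a5, had 4.98, 4.0, 3.27, 3.79 and 3.77 scaled CPM in KO_night, against 6.74, 6.07, 5.15, 4.79 and 4.4 in WT_night. KO_night 1 lay above the lowest WT_night libraries, replicates 4 and 5, and the log2 change was -0.45 ± 0.12 (edgeR adjusted p = 0.0258). Col4a3 had 2.02, 1.59, 1.09, 1.41 and 1.31 scaled CPM in KO_night, against 2.35, 2.10, 2.43, 1.87 and 2.30 in WT_night. Only KO_night 1 lay within the WT_night range, and the log2 change was -0.57 ± 0.17 (edgeR adjusted p = 0.0326), at raw counts of 42 to 93 per library. The abundant chains Col4a1 and Col4a2 did not pass, with log2 values of -0.07 and -0.05, and Col4a5 had -0.21 (edgeR adjusted p = 0.0642).

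**Figure D2:**
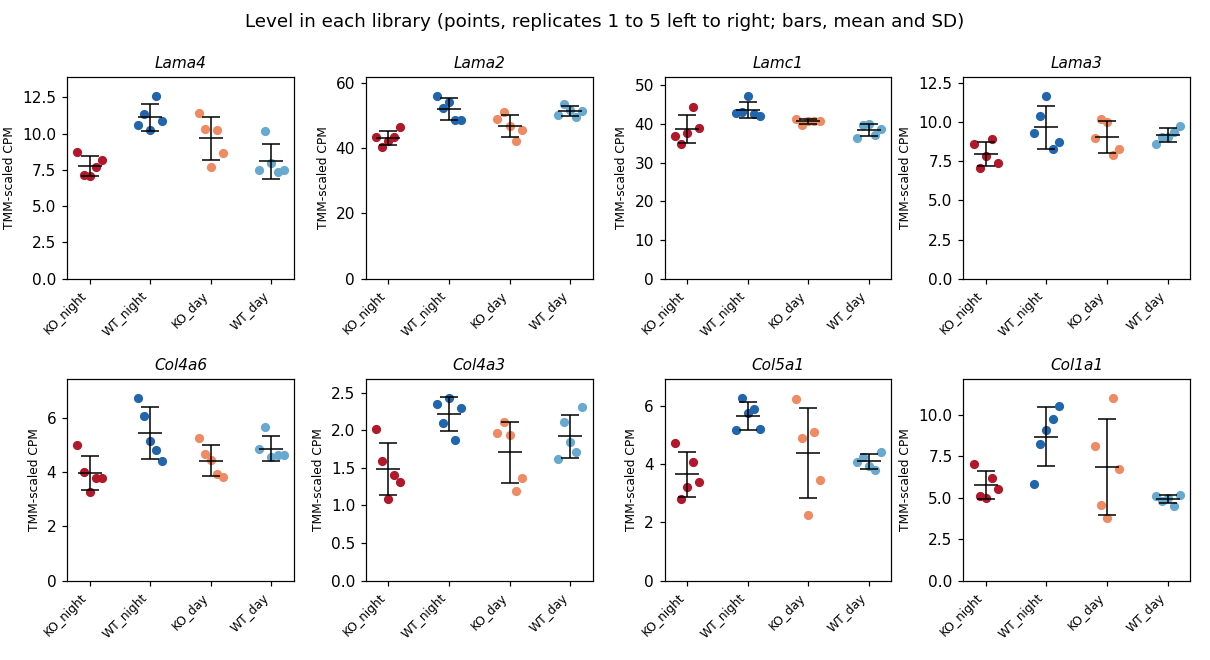
Level in each library (scaled CPM, replicates 1 to 5 from left to right within a group; bars give mean and SD) for the 7 genes that fell at night and for Col1a1. KO_night and WT_night points of Lama4, Lama2 and Col5a1 do not overlap, while those of the other 5 do. The 7 genes were chosen because they passed this comparison, so their separation is not further evidence.

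Col5a1, which starts collagen fibrils together with Col5a2, was the fibrillar member that fell. It had 4.74, 2.81, 3.22, 4.08 and 3.41 scaled CPM in KO_night, against 5.18, 6.29, 5.78, 5.92 and 5.21 in WT_night. The groups did not overlap, and the log2 change was -0.63 ± 0.18 (edgeR adjusted p = 0.0272), the farthest from 0 among the 7. Col1a1 had 7.0, 5.08, 4.96, 6.15 and 5.50 scaled CPM in KO_night, against 5.83, 8.23, 9.08, 9.73 and 10.5 in WT_night. WT_night 1 lay within the KO_night range, and the gene did not pass (log2 value -0.59 ± 0.20, edgeR adjusted p = 0.0516). Col3a1 was close to it in size, at -0.61 ± 0.23 (edgeR adjusted p = 0.081).

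The class of other collagens held no gene that passed at night. Its smallest p belonged to Col10a1, a cartilage network collagen, at 0.974 ± 0.222 scaled CPM in KO_night and 1.45 ± 0.352 in WT_night (SD, n = 5 each), with a log2 value of -0.56 (edgeR adjusted p = 0.0522). Col25a1 averaged 177 ± 10.1 scaled CPM in KO_night and 192 ± 11.3 in WT_night, and its edgeR adjusted p was 0.190. At an unadjusted p under 0.05, 20 members were lower and 0 higher at night (36.4% of the members). Of all genes 29.9% had such a p in either direction and 15.4% lower.

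Of the laminin genes that did not pass at night, Lamb1 averaged 16.1 ± 1.05 scaled CPM in KO_night and 15.7 ± 0.790 in WT_night, with Lamb2 at 29.6 ± 2.17 in KO_night and 30.2 ± 2.44 in WT_night, and Lama5 at 9.74 ± 1.76 in KO_night and 9.68 ± 1.16 in WT_night (SD, n = 5 each). These are the beta chains common to many laminins and an alpha chain of mature vessel laminin, and their edgeR adjusted p lay between 0.770 and 0.960. The collagen VI genes Col6a1 and Col6a2 had log2 values of -0.36 and -0.43 at night (edgeR adjusted p = 0.202 and 0.156).

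The number of members that fell depended on single libraries. It was 2, Lama2 and Lama4, without KO_night 2, KO_night 3, WT_night 1 or WT_night 3. Of all genes 1.39%, 2.34%, 1.29% and 0.55% passed in those fits, in that order. The count was 12 without KO_night 1 or KO_night 4, where 10.6% and 19.3% of all genes passed. Lama2 and Lama4 passed in each of the 20 fits that left out 1 library. With groups taken from the time field, or over the 14 libraries where title and time field name 1 and the same time, no member passed, and of all genes 4 and 6 did. DESeq2 in place of edgeR gave 11 members lower, with 18.2% of all genes called. The fit without the 6 conflicting libraries has fewer samples, and whether that lowered its count was not tested. With library totals alone Lamc1 (edgeR adjusted p = 0.115) and Lama3 (0.0987) did not pass, and Lama3 did not pass without the filter on low counts (0.0591) or with a replicate block (0.0686).

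Members are long genes, with a median span of 114 kb, against 17.6 kb for all genes tested, and the night comparison moved with gene span across the transcriptome. Of the 17 members under 50 kb, 0 fell (2.55% of all genes in that range), of the 25 from 50 to 150 kb, 3 fell (11.1% of all genes), and of the 13 over 150 kb, 4 fell (41% of all genes). Spearman's rho of span with the log2 change was -0.27 over the 55 members and -0.33 over all genes tested, given as a description since genes share libraries. The slope of a library's log2 level per 10-fold longer span lay between -0.07 and -0.02 in KO_night, and between -0.0094 and 0.098 in WT_night, with WT_night 3, 1 and 2 highest. When each library's trend with span was removed, Lama4 still passed, with a log2 change of -0.39 (edgeR adjusted p = 0.0459), and no other member did. Of all 22181 genes 1179 (5.32%) passed in that fit, 497 of them lower. Col5a1 then had -0.49 and Col4a3 -0.44 (edgeR adjusted p = 0.102 and 0.0972), and Col1a1 had -0.63 (edgeR adjusted p = 0.0522), against -0.63 for Col5a1, -0.57 for Col4a3 and -0.59 for Col1a1 as counted. Col4a6 had -0.23, Lama3 -0.09, Lamc1 -0.07 and Lama2 0.02 (edgeR adjusted p = 0.251, 0.482, 0.373 and 0.899), and the median of the 55 members was -0.05, against -0.19 as counted. Without WT_night 1, 2 and 3, a choice made after seeing the data, no member passed, with 2 genes higher and 9 lower in all, and Lama4 had a log2 value of -0.59 (edgeR adjusted p = 0.268) on 2 WT_night libraries.

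**Figure D3:**
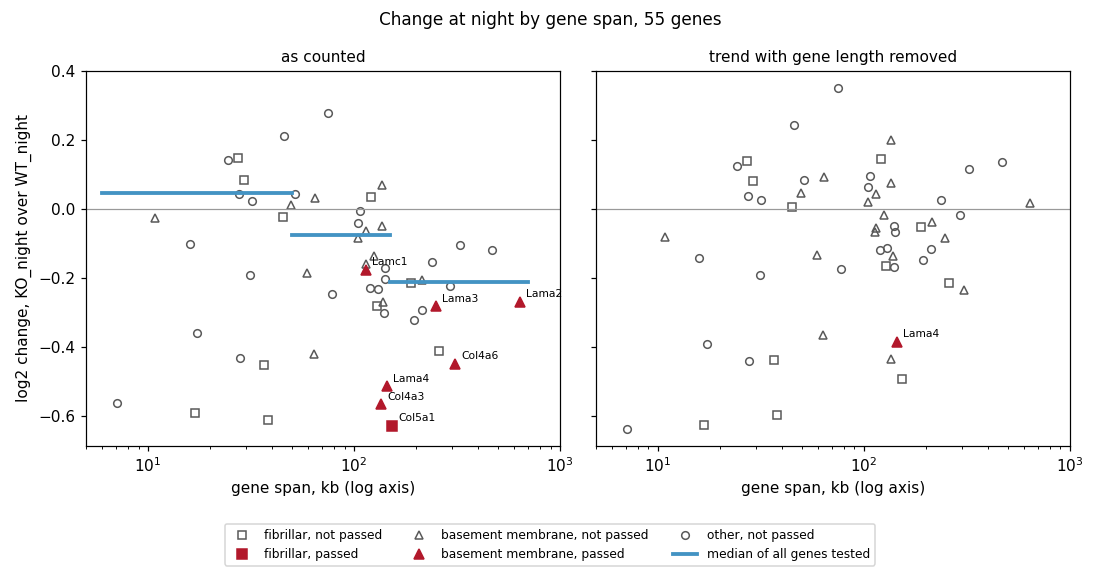
Log2 change at night, KO_night over WT_night, of each member against its gene span in kb on a log axis, as counted (left) and with each library's span trend removed (right); blue bars are the medians of all genes tested in 3 span ranges. Filled symbols passed edgeR at an adjusted p under 0.05: 7 as counted and 1, Lama4, after the trend was removed. Of all genes tested 11.9% and 5.32% passed in these fits.

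In whole tissue, fewer cells of a type and less RNA per cell cannot be told apart. The summed level of 10 meningeal and fibroblast markers was 46.9 to 79.0 scaled CPM in KO_night, 79.3 to 123 in WT_night, 24.9 to 128 in KO_day and 56.5 to 87.6 in WT_day. Of these 10, all but Igf2 were tested. All 9 tested had a lower mean in KO_night than in WT_night, with a median log2 value of -0.63. Ogn, which encodes the fibril-binding proteoglycan osteoglycin, passed. All 9 were counted in every library. The summed level of the 11 fibrillar genes was 83.1 to 108 in KO_night, 105 to 129 in WT_night, 83.1 to 118 in KO_day and 87.0 to 97.8 in WT_day. The part of the meningeal markers in the fibrillar values was not tested.

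The 10 endothelial markers summed to 239 to 257 scaled CPM in KO_night and 233 to 251 in WT_night, with 5 of 10 lower and a median log2 value of -0.01. The 10 pericyte and smooth muscle markers summed to 167 to 183 in KO_night and 163 to 221 in WT_night, with 6 of 10 lower, 0 called and a median of -0.09. The part of these markers in the Lama4 and Lama2 values was not tested.

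**Figure D4:**
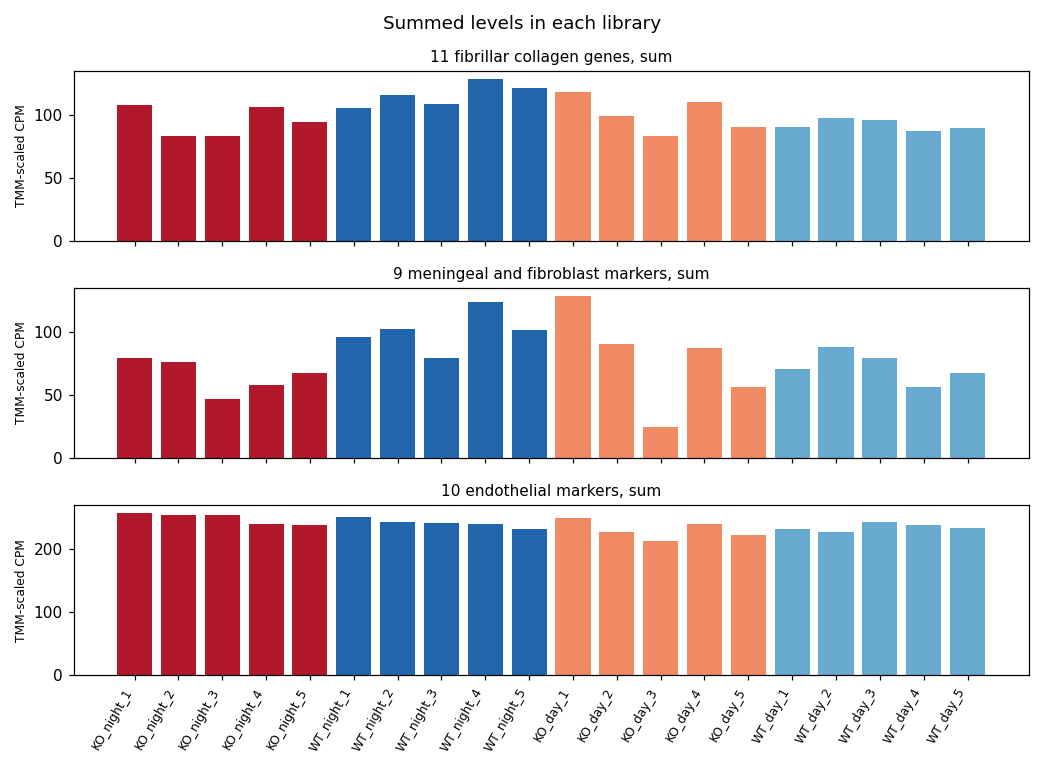
Summed level in each library (scaled CPM, bars from 0) of the 11 fibrillar collagen genes, of 10 meningeal and fibroblast markers and of 10 endothelial markers. The panel title of the meningeal markers gives 9, the number tested. Meningeal sums are lowest in KO_day 3 (24.9) and highest in KO_day 1 (128), while endothelial sums stay between 214 and 257.

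By day no member passed between KO_day and WT_day (0 of 55, against 0.113% of all genes, edgeR); 5 had an unadjusted p under 0.05 (9.09%, against 9.62% of all genes), and DESeq2 called 0. The 5 were Lama2 at a log2 value of -0.13, Lamb2 at 0.21, Lama4 at 0.25, Col1a1 at 0.47 and Col9a1 at 0.39. Lama4 had 11.4, 10.3, 7.73, 10.3 and 8.64 scaled CPM in KO_day, against 7.47, 10.2, 7.95, 7.37 and 7.51 in WT_day, with KO_day 3 and KO_day 5 inside the WT_day range. KO_day libraries were spread widely for fibroblast-type genes: Col1a1 had 8.09, 4.53, 3.78, 11 and 6.71 scaled CPM in KO_day, against 5.09, 4.82, 4.96, 4.52 and 5.14 in WT_day. Col5a1 was lowest in KO_day 3 at 2.26 and highest in KO_day 1 at 6.23 scaled CPM, the libraries with the lowest and the highest meningeal sums. Col1a1 was also lowest in KO_day 3 but highest in KO_day 4, whose meningeal sum was 87.3, against 128 in KO_day 1.

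Averaged over day and night, Lama2 was the 1 member that passed between KO and WT (1.82% of the members, against 1.31% of all genes in either direction and 0.523% lower), with a log2 change of -0.20 ± 0.037 (edgeR adjusted p = 0.00941). By day it had 48.8, 51.0, 46.8, 42.1 and 45.5 scaled CPM in KO_day, against 50.3, 53.7, 51.6, 49.5 and 51.5 in WT_day. KO_day 2 was the library that lay within the WT_day range. With the span trend removed the mean change was -0.05 (edgeR adjusted p = 0.532), and over the 14 libraries with agreeing time labels it was -0.19 (edgeR adjusted p = 0.0679).

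In WT hypothalamus, night against day, no member passed (0 of 55, against 0.275% of all genes, edgeR). At an unadjusted p under 0.05, 15 members were higher at night and 0 lower (27.3%). Of all genes 15.9% had such a p in either direction and 7.79% higher. DESeq2 called 3 members and 2.4% of all genes it tested. Lama4 had 10.6, 11.4, 10.2, 12.6 and 10.9 scaled CPM in WT_night, against 7.47, 10.2, 7.95, 7.37 and 7.51 in WT_day, a log2 value of 0.46 ± 0.10 (edgeR adjusted p = 0.0534). WT_day 2 was the highest WT_day library and stood next to the lowest WT_night library, replicate 3. Col1a1 averaged 8.68 ± 1.81 scaled CPM in WT_night and 4.90 ± 0.251 in WT_day (SD, n = 5 each) and its groups did not overlap, at a log2 value of 0.82 (edgeR adjusted p = 0.0734). Next by p were Lamc1 at 0.18, Col1a2 at 0.66 and Col4a5 at 0.24, with edgeR adjusted p of 0.115, 0.132 and 0.141. These values share the WT_night libraries with the KO comparison at night. Without KO_day 3, 2 genes passed (Col1a1 and Lama4), and without KO_night 4 Lama4 and Lamc1 did. Lama4 alone passed without WT_day 2, KO_day 1 or KO_night 2, and Col1a1 alone without KO_day 4; KO libraries enter through the shared estimate of spread.

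In KO hypothalamus no member passed between night and day (0 of 55, against 0.0721% of all genes, edgeR); 4 had an unadjusted p under 0.05, all lower at night (7.27%, against 17.7% of all genes in either direction and 8.48% lower), and DESeq2 called 0. Lama4 had the smallest p, at 7.77 ± 0.696 scaled CPM in KO_night and 9.67 ± 1.47 in KO_day (SD, n = 5 each), a log2 value of -0.31 (edgeR adjusted p = 0.134). The others were Col25a1 at -0.14, Lama2 at -0.12 and Col6a5 at -0.23.

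The interaction, which tests whether the difference of KO from WT itself differed between night and day, called 0 members and 0 of all genes with edgeR (0%). At an unadjusted p under 0.05, 14 members (25.5%) had a lower value at night than by day and 0 a higher one, against 22.1% of all genes in either direction and 11.5% lower. DESeq2 called 4 members (Lama4, Col1a1, Lamc1 and Col5a1), and 6.99% of all genes it tested. Lama4 had -0.77 ± 0.14 on the log2 scale (edgeR adjusted p = 0.0543), Col1a1 -1.06 ± 0.28 (0.0648) and Lamc1 -0.26 ± 0.073 (0.0762). Without WT_night 4 or without KO_night 4, these 3 genes passed, and so did 6.61% and 6.85% of all genes in those fits. Lama4 was the 1 member that passed without WT_day 2, KO_day 1, KO_day 3 or KO_day 4, where between 3 and 566 genes passed in all.

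**Figure D5:**
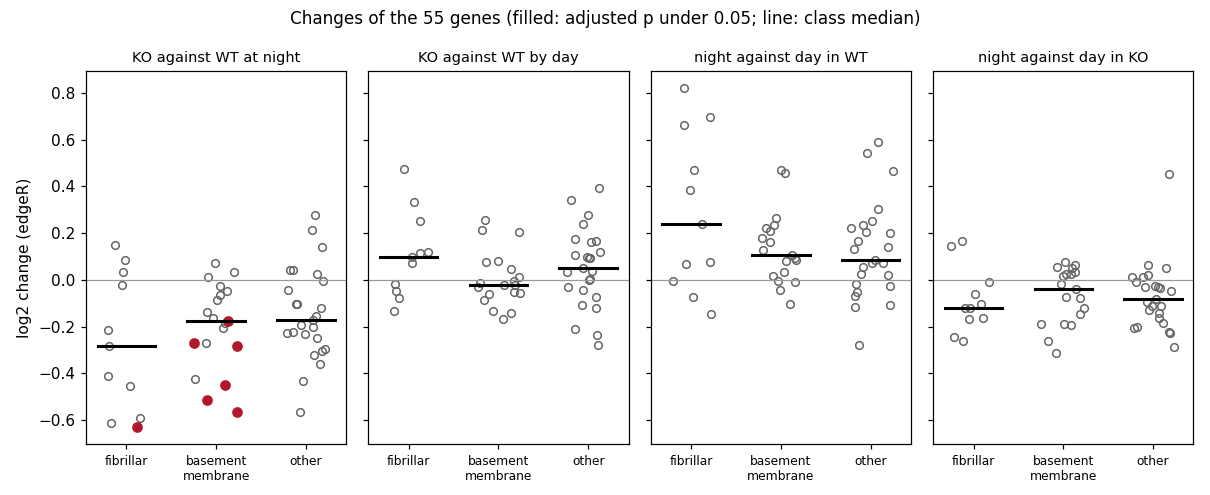
Log2 change of the 55 genes in 4 comparisons, by class (points, 1 per gene; filled where edgeR's adjusted p was under 0.05; lines are class medians). The 7 filled points are all in the comparison of KO_night with WT_night, where the fibrillar median is -0.28 and that of all genes tested 0.01.

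Of all genes tested at night 5.18% rose and 6.77% fell, and the counts in the lists of related genes below stand beside those shares. With groups from the time field, 0 genes rose and 4 fell at night in all, and 0 passed between night and day in WT. Every rise in these lists at those comparisons was therefore lost there. Of all the falls listed at night, at most 4 could have remained, and fewer where Ndn or Magel2 was among those 4. Over the libraries whose time labels agree, 2 genes rose and 4 fell at night in all. The comparison at night also moved with gene span: 2.55% of all genes under 50 kb fell, and 41% of those over 150 kb. Night against day in WT moved with span too (Spearman's rho 0.26 over all genes tested). Values of the list genes with the span trend removed are not given here, and the part of span in their changes was not tested.

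Genes that process collagen after translation were mixed at night, with 3 of 31 higher and 3 lower (median log2 value -0.09). Colgalt1, a collagen galactosyltransferase, rose by 0.17, Fkbp10, a procollagen chaperone, by 0.30, and Loxl3, a lysyl oxidase, by 0.24 on the log2 scale. Loxl2, another lysyl oxidase, fell by 0.86, Tll1, a protease that trims procollagen, fell by 0.37, and P3h2, a prolyl hydroxylase acting on collagen IV, fell by 0.30 (edgeR adjusted p of 0.016 to 0.0446 over the 6 genes). Loxl2 stood at 0.460 to 0.753 scaled CPM in KO_night and 0.844 to 1.43 in WT_night, without overlap. Colgalt1 also rose averaged over both times, by 0.15 on the log2 scale (edgeR adjusted p = 0.0234).

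Of 15 receptors for collagen and laminin tested, Itga3 and Ddr1 rose at night and Ddr2 and Itga11 fell. Itga3, an integrin chain that binds laminin, rose by 0.16 at night and by 0.16 averaged over both times (edgeR adjusted p = 0.0392 and 0.0314). Ddr1, a collagen receptor tyrosine kinase found on oligodendrocytes, rose by 0.18 at night and by 0.16 averaged over both times (edgeR adjusted p = 0.0281 and 0.033). The 5 oligodendrocyte markers had a higher mean in KO at night and averaged over both times, with median log2 values of 0.18 and 0.14, and their summed level was 1973 to 2663 scaled CPM in KO_night and 1826 to 2262 in WT_night. Of them Mag and Cnp rose at night and Mag averaged over both times, and their part in the Ddr1 values was not tested. Ddr2, its counterpart on fibroblasts, fell by 0.47, and Itga11, a fibroblast receptor for fibrillar collagen, fell by 0.42 on the log2 scale (edgeR adjusted p = 0.0453 and 0.0375).

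Among 13 proteins that bind collagen fibrils, 4 fell at night and 12 had a lower mean in KO_night, with a median log2 value of -0.39, against 0.01 over all genes tested. They were Ogn at -0.88, Omd, a related small proteoglycan, at -0.87, Thbs1, a matricellular protein, at -0.40, and Tnxb, a tenascin of connective tissue, at -0.35 (edgeR adjusted p of 0.0264 to 0.0434). Omd stood at 0.649 to 1.40 scaled CPM in KO_night and 1.75 to 2.03 in WT_night. Ogn, Dcn and Lum are also on the list of meningeal and fibroblast markers above, so the medians of these lists share genes.

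Of 14 other basement membrane proteins, Smoc1, a calcium-binding protein of basement membranes, fell at night, at 20.4 to 24.2 scaled CPM in KO_night and 25.3 to 31.1 in WT_night (log2 change -0.33, edgeR adjusted p = 0.0103). Frem2, which anchors basement membrane in epithelia, rose in WT at night against day by 0.46 on the log2 scale (edgeR adjusted p = 0.0206). Of 14 matrix proteases and inhibitors, Reck, a membrane-bound inhibitor of matrix proteases, fell by 0.31 at night and by 0.19 averaged over both times (edgeR adjusted p = 0.0115 and 0.0372). Mmp16, a membrane-bound matrix protease, fell by 0.25 at night (edgeR adjusted p = 0.0438). In WT at night against day, Mmp14 rose by 0.50 on the log2 scale (edgeR adjusted p = 0.0455). The collagen-processing genes Loxl2 and Adamts2 rose by 0.87 and 0.22 in that comparison (edgeR adjusted p = 0.0498 and 0.0489). Without WT_day 3, 3 genes in all rose in that comparison. At most 3 of Frem2, Mmp14, Loxl2 and Adamts2 could therefore have remained.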

How the data were processed

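Raw counts per gene were made by the authors with HISAT2 and featureCounts on mm10, per the submitters' processing notes, and deposited as 1 table per library; versions and strand settings are not given in the sources used here. Of 53801 identifiers, 53706 matched GENCODE M21, and 22181 genes passed filterByExpr (minimum count 10) and were tested. Each comparison was a contrast of 4 group means over all 20 libraries in edgeR 4.0.16 (TMM factors 0.945 to 1.08, quasi-likelihood F-test, Benjamini-Hochberg adjusted p under 0.05; R 4.3.3). DESeq2 1.42.0, other scalings, no filter, a replicate block, other time labels, removal of each library's trend with gene span (lowess span 0.3) and leaving out each library were alternatives. The members, gene lists and tests were chosen with earlier results of these data known. The genes named are members that passed a comparison, the 5 smallest p per comparison, the 5 highest levels per class, those next to the level limit, and list genes that passed or had the smallest p; Col3a1, Col2a1, Col4a4, Lama1, Lama5 and the overlapping genes were added after their values were seen. 1 member counted in the totals is not reported here by name. No 2 libraries of a group agreed within sampling noise (chi-square per degree of freedom 5.58 to 53.7 over 40 pairs). The fit was tested on simulated data. Correlations used scipy 1.17.1.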

Additional observations from a re-analysis of the deposited data

Results flagged for a closer look

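In the 120 groups of 5 libraries checked, 7 had 1 library far from its neighbors (gap over range above 0.71); chance flags about 1 in 20 such groups. In WT_day 3, Ndn stood at 30.9 scaled CPM (other WT_day libraries 248 to 274) and Magel2 at 2.15 (15.6 to 17.9). WT_day 2 was above the rest of its group for Lama4, at 10.2 scaled CPM against 7.37 to 7.95, and for Col4a6, at 5.66 against 4.56 to 4.83. WT_night 2 was above the rest of its group for Col9a2, at 13.1 against 10.2 to 10.9, and for Col6a6, at 1.51 against 1.13 to 1.22 scaled CPM. For Lamc1, WT_night 3 stood at 47.3 scaled CPM, against 42.2 to 43.1 in the rest of WT_night. What sets these libraries apart was not tested.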

How the results depend on the processing

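At night 7 members passed. The count was 0 with groups from the time field, 0 over libraries whose time labels agree, 1 with the span trend removed and 11 with DESeq2. It was 0 without WT_night 1, 2 and 3 (chosen after seeing the data). Leaving out each library in turn gave 2 to 12, and 6 without WT_day 3. Of all genes 11.9% passed in the main fit, 5.32% with the trend removed and 18.2% with DESeq2. With a library left out 0.55% to 19.8% of all genes passed. With library totals alone the split of all genes called at night was 1435 higher and 570 lower, against 1148 and 1501 with TMM, and medians over all genes stayed within 0.0488 of 0 on the log2 scale. Averaged over both times 1 member passed: 0 over agreeing labels, with the trend removed or without WT_night 1, 2 and 3, 3 with DESeq2, and 1 to 3 with a library left out. By day the count was 1 with the time field (Lama2, lower) and otherwise 0. Night against day in WT gave 2 without the filter, 2 over agreeing labels, 3 with DESeq2 and 0 to 2 with a library left out, and in KO 0 throughout. The interaction gave 1 with library totals, 2 without the filter, 4 with DESeq2 and 0 to 3 with a library left out. Lama2 at night reversed to 0.016 with the span trend removed. The causes were not tested.

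Replicate numbers did not pair the libraries (correlations of same-numbered deviations -0.17 to 0.30, median -0.014). With a replicate block 6 members passed at night and 2 averaged over both times (Lama2 and Col4a6).

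On deviations from group means r was 0.683 for Col1a1 and Col3a1, 0.613 for Col4a1 and Col4a2, 0.478 for Col1a1 and Dcn and -0.12 for Col4a1 and Flt1, the last with the sign reversed. Without 2 libraries r was 0.458 for Col4a1 and Col4a2 and 0.663 for Col5a1 and Col5a2.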
